A study of Mus musculus with 24 samples.

Results

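The genes described here are 49 interferon-induced genes, taken as a list of well-known members of the response and grouped by role: 22 antiviral effectors, 9 GTPases, 7 genes of the ISG15, ubiquitin and ADP-ribosylation systems, 5 sensors of foreign nucleic acid, 3 transcription factors and 3 genes of antigen processing. They are 49 of the 20738 genes named on the array, and each was read from its brightest spot on average over all samples. All 49 lay above the filter on dim genes, as did 16519 genes in all. Ifit3b carried the older symbol I830012O16Rik on the array and Gbp6 the symbol Mpa2l.

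The study asked how carbon nanomaterials with different properties change gene expression in the mouse lung. Female C57BL/6 mice aged 7 to 8 weeks received 1 of 6 materials, named rCNT, tCNT, SES, BayTubes, Graphite and fullerene in the labels, by oropharyngeal aspiration, in which a droplet set down behind the tongue is inhaled. The dose was 10 µg a day in 50 µl of saline (PBS) for 4 days, the control mice (Ctrl) had saline alone by the same route, and the lung was taken 24 h after the last dose. RNA of 2 mice was pooled for each sample, so the spread between single mice was not measured, and the groups BayTubes, Graphite and fullerene had 4 samples each, while SES, tCNT, rCNT and Ctrl had 3 each. In the study's paper rCNT and tCNT are rigid and tangled carbon nanotubes, BayTubes is a carbon nanotube product, and the labels do not say what SES stands for. The surfactant gene Sftpc, a marker of lung epithelium, had a log2 signal of at least 16.8 in every sample.

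Type I and type III interferons are secreted when a cell senses viral or misplaced nucleic acid. All interferons bind receptors on the same and neighbouring cells, and Janus kinases then activate STAT proteins. With type I and type III interferon a complex that contains Stat2 and Irf9 binds the interferon-stimulated response element in the promoters of target genes, whereas type II interferon acts through the gamma-activated sequence. The targets include enzymes that block viral replication, sensors and transcription factors that feed the response, and GTPases of the Gbp and Irg families that attack vacuoles holding microbes.

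The letters of the response element were looked for in the promoters of these genes. RefSeq promoter sequences of assembly GRCm38.p6, which run from 250 bases before to 50 bases after a start site, were given for 38 of the 49 genes, and not for Dhx58, Gbp6, Iigp1, Mx1, Mx2, Oas2, Parp14, Parp9, Rtp4, Usp18 and Zbp1. The core of the element, read as GAAA, then any 2 bases, then GAAA, was searched on both strands with overlapping matches allowed, and it was present in 20 of the 38 (52.63%), against 3.99% of the 27025 genes in the table. The gamma-activated sequence TTCNNNGAA was present in 10 of the 38 (26.32%), against 9.55% of genes. By role, the response element was found in 6 of 7 GTPases, 3 of 3 sensors, 8 of 18 antiviral effectors, 2 of 4 genes of the ISG15 group, 1 of 3 transcription factors and 0 of 3 antigen processing genes. A match is a description of the letters and does not show a binding site. The sequences below are the 150 bases before the start site, read 5′ to 3′ on the strand of the gene, with each match of the core in capitals; where a match lies on the opposite strand it reads TTTC, any 2 bases, TTTC. Isg15, Ifit1, Rsad2 and Oas1a are shown because they were among the genes that rose most after rCNT, and Gbp2 and Igtp because they carry the same element and did not pass the test there. Isg15 (chr4:156200819-156200968, minus strand) has 3 overlapping matches, which begin 78, 72 and 66 bases before the start site. Ifit1 (chr19:34640739-34640888, plus strand) has 2 matches, and Rsad2 (chr12:26456453-26456602, minus strand) has 1. Oas1a (chr5:120907526-120907675, minus strand) has 2 overlapping matches at 20 and 14 bases before the start site. Gbp2 (chr3:142620513-142620662, plus strand) and Igtp (chr11:58199406-58199555, plus strand) have 1 match each, at 59 and 34 bases.
Isg15: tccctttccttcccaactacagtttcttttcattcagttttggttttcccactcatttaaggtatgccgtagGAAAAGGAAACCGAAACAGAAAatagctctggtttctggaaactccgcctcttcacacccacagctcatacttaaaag
Ifit1: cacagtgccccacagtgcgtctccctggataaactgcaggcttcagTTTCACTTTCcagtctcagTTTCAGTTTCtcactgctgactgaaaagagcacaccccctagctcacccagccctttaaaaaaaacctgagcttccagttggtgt
Rsad2: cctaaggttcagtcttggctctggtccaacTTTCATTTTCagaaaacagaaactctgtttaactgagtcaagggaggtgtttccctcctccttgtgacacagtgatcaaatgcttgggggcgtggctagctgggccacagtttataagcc
Oas1a: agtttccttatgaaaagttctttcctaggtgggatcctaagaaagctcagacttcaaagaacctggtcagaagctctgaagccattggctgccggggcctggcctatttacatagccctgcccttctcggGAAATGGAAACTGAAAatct
Gbp2: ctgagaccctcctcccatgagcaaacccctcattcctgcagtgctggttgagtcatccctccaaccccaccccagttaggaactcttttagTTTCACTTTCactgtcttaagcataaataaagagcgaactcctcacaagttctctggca
Igtp: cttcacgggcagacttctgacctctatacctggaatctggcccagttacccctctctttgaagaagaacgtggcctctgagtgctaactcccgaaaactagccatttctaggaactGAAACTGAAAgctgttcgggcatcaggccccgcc

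Of the 26 genes that rose after rCNT 19 had a promoter in the table, and the element was present in 10 of them, as in 10 of the 19 others; the 7 left out include Zbp1, Mx1 and Mx2, which were among those that changed most.

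Some samples stood apart in ways their groups do not explain. On each of the 12 arrays a pair of samples was hybridised, each in its own dye, and the residuals of samples that shared an array correlated at a median of 0.64, against -0.07 for the 264 other pairs. The array of rCNT 4 and Graphite 16 had the largest residual SD (0.495 and 0.43), against 0.16 to 0.39 in the other samples, where 0.39 was Graphite 13. Where a call after rCNT changes when this array is left out, both values are given, and Ctrl samples lay on slides 1 and 2 but not on slide 3.

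After rCNT, 26 of the 49 genes rose and none fell at an adjusted p under 0.05 (limma). Over all genes tested 12.4% rose in this comparison and 9.41% fell. The median log2 change of the 49 genes was 0.60, against -0.02 over all genes, and 42 of the 49 changes were above 0. In 25 of the 49 every rCNT sample lay above every Ctrl sample, as did 18.9% of all genes. In 14 of the 49 every rCNT sample lay above each of the 21 other samples of the series, compared with 5.42% of all genes. In whole lung tissue a change in the number of cells of a type and a change of RNA per cell cannot be told apart.

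**Figure D1:**
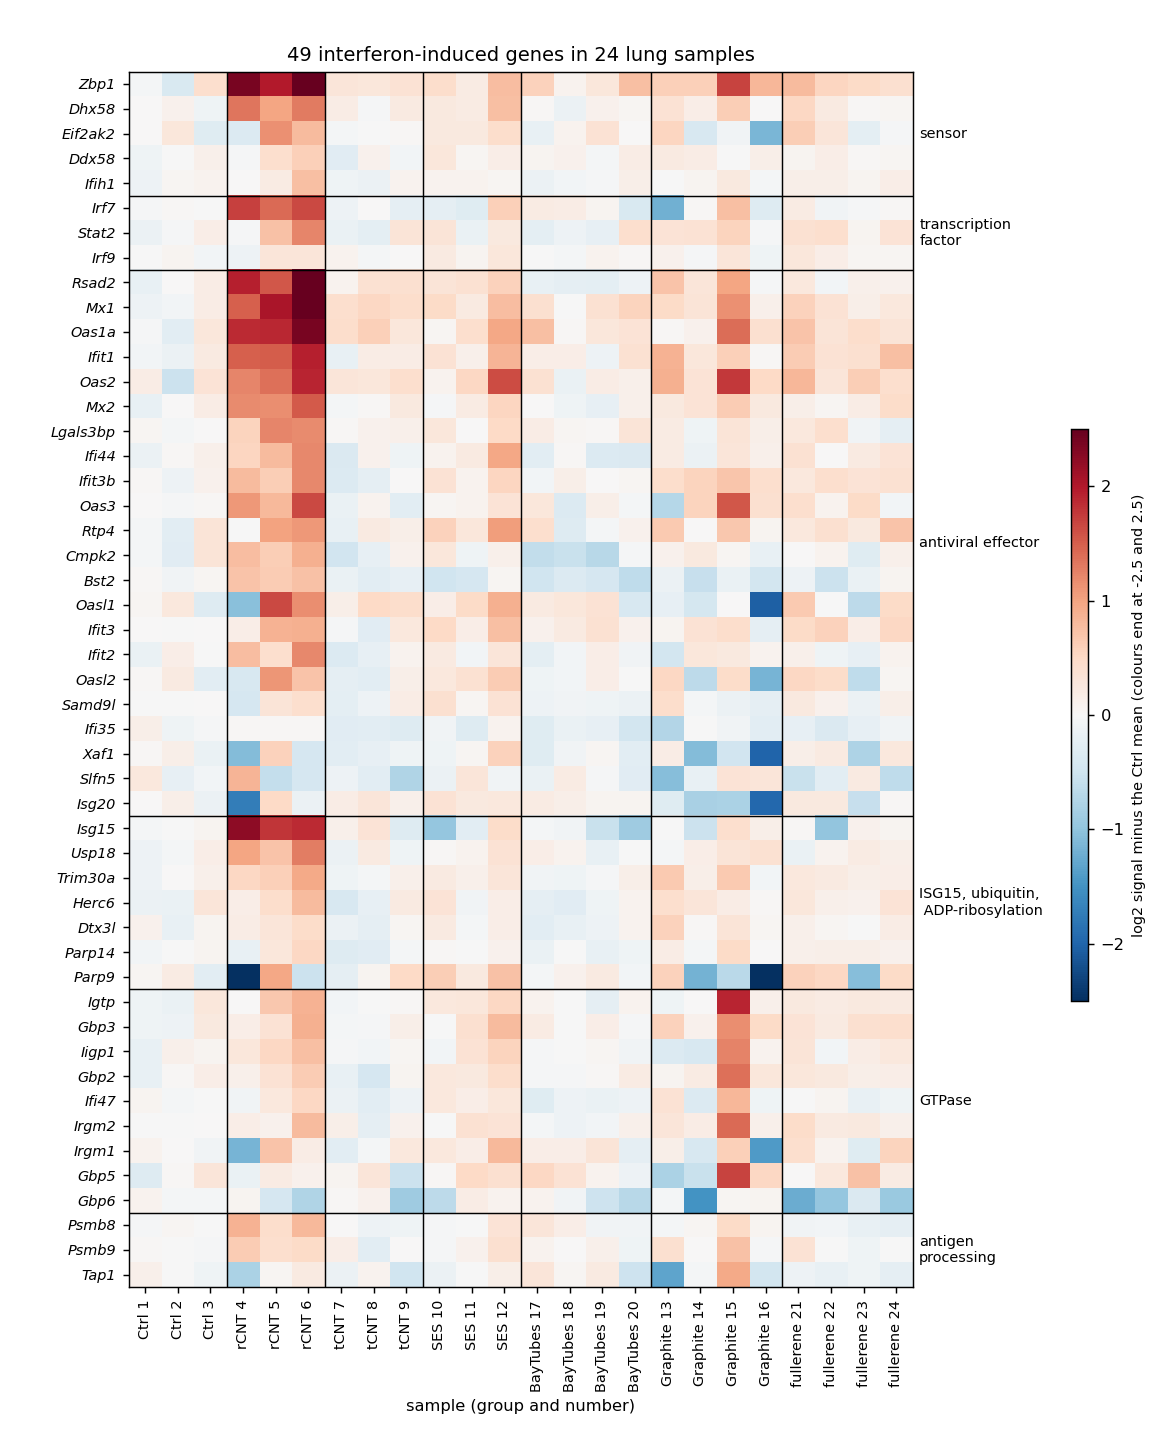
Log2 signal of the 49 genes (rows, by role) in the 24 samples (columns, by group) minus the mean of the 3 Ctrl samples; red is above that mean and blue below. The 3 rCNT columns are red over most antiviral effectors, the sensors Zbp1 and Dhx58 and Isg15, while Graphite 15 is red over the GTPases. The samples rCNT 4 and Graphite 16 share blue cells for genes such as Parp9, Isg20 and Oasl1.

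Among the sensors, Zbp1, which binds left-handed nucleic acid and can start necroptosis, showed the largest change of all 49 genes. Its log2 signal was 7.59, 7.24 and 8.05 in Ctrl 1, 2 and 3 and 10.00, 9.60 and 10.24 in rCNT 4, 5 and 6, and it ranged from 7.72 to 9.31 in the 18 samples of the other materials. All rCNT samples lay above every other sample, and the log2 change from Ctrl was 2.25 ± 0.26 (SE), a fold of 4.75 (adjusted p = 8.85e-06). Dhx58, which modulates signalling by the RNA sensors Ddx58 and Ifih1, stood at 8.25, 8.37 and 8.14 in Ctrl and at 9.58, 9.24 and 9.55 in rCNT, against 8.11 to 9.01 elsewhere. It rose by 1.12 ± 0.15 (SE) on the log2 scale (adjusted p = 3.16e-05), again with no overlap with any other sample. Ddx58 (RIG-I), a sensor of RNA ends, rose by 0.40 ± 0.13 (SE; adjusted p = 0.038), but the rCNT 4 value of 10.88 lay within the Ctrl range of 10.81 to 11.04. Neither Ifih1 (MDA5), which senses long double-stranded RNA, nor Eif2ak2 (PKR), a kinase that stops translation, passed the threshold, with log2 changes of 0.29 ± 0.13 (SE; adjusted p = 0.112) and 0.60 ± 0.29 (SE; adjusted p = 0.145). Without the array of rCNT 4 and Graphite 16 both passed, at 0.45 (adjusted p = 0.0102) for Ifih1 and 0.97 (adjusted p = 0.00174) for Eif2ak2. For Eif2ak2 the samples rCNT 5 and rCNT 6 lay above Ctrl and rCNT 4 below it, at 9.98, 9.63 and 8.50 against 8.55 to 9.13.

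Of the transcription factors, Irf7, which amplifies type I interferon production, was level in the controls at 8.08, 8.12 and 8.10. It reached 9.81, 9.53 and 9.75 in the rCNT samples and ranged from 6.91 to 8.85 in the other materials, so that no rCNT sample overlapped with any other. The log2 change from Ctrl was 1.44 ± 0.32 (SE; adjusted p = 0.00302). Stat2 rose less, from 11.32, 11.44 and 11.64 in Ctrl to 11.44, 12.19 and 12.68 in rCNT (log2 change 0.67 ± 0.23, SE; adjusted p = 0.0397), and its rCNT 4 value lay within the Ctrl range. Irf9, the partner of Stat2, changed by 0.14 ± 0.11 (SE; adjusted p = 0.392), with a 95% interval from -0.09 to 0.37.

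The antiviral effectors held most of the risers, with 14 of 22 higher, none lower and a median log2 change of 0.84. Rsad2 (viperin), an enzyme that makes a chain-terminating nucleotide, had signals of 7.84, 8.03 and 8.22 in Ctrl and 9.97, 9.58 and 10.59 in rCNT. In the other materials it ranged from 7.79 to 9.01, below all rCNT samples, and its adjusted p of 3.84e-06 was the smallest among the 49 genes. Mx1, a gene of the dynamin-like GTPases, stood at 7.60, 7.67 and 7.93 in Ctrl and at 9.22, 9.77 and 10.32 in rCNT. Its log2 change was 2.02 ± 0.24 (SE; adjusted p = 1.01e-05). The related Mx2 was at 8.14, 8.33 and 8.51 in Ctrl and at 9.51, 9.50 and 9.86 in rCNT (adjusted p = 8.53e-06). Both Mx genes were higher in each rCNT sample than in any of the 18 samples of other materials, which reached 8.87 for Mx1 and 8.96 for Mx2.

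Oas1a and Oas2 belong to the enzymes that make 2′-5′ oligoadenylate, the signal that activates RNase L. Oas1a was at 10.81, 10.57 and 11.12 in Ctrl and at 12.69, 12.72 and 13.20 in rCNT, a log2 change of 1.94 ± 0.30 (SE; adjusted p = 0.000123). Oas2 was at 10.07, 9.35 and 10.22 in Ctrl and at 11.09, 11.25 and 11.78 in rCNT, a log2 change of 1.52 ± 0.35 (SE; adjusted p = 0.00401). Unlike Oas1a, Oas2 overlapped with other materials, of which SES 12 reached 11.51 and Graphite 15 reached 11.65, and its call was lost without Ctrl 2 (log2 change 1.15, adjusted p = 0.0518). Oas3 had a change of 0.90 ± 0.34 (SE) that missed the threshold (adjusted p = 0.0664), although its rCNT samples at 7.25, 6.98 and 7.81 all lay above Ctrl at 6.13 to 6.19. The related genes Oasl1 and Oasl2 had changes of 0.68 ± 0.48 and 0.53 ± 0.34 (SE), and in both rCNT 4 was the lowest of the rCNT samples and below every Ctrl sample. With its array left out both passed, at 1.29 (adjusted p = 0.00525) and 0.94 (adjusted p = 0.0147).

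The Ifit genes code for proteins that bind foreign RNA. Ifit1 stood at 8.70, 8.62 and 8.99 in Ctrl and at 10.27, 10.29 and 10.71 in rCNT, above all other materials, which reached 9.65. The log2 change was 1.82 ± 0.22 (SE; adjusted p = 1.25e-05). Ifit3b was at 9.55, 9.40 and 9.63 in Ctrl and at 10.32, 10.14 and 10.73 in rCNT (log2 change 0.90 ± 0.14, SE; adjusted p = 0.000125), and Graphite 15 at 10.23 lay between the rCNT samples. Ifit3 and Ifit2 rose by 0.63 ± 0.18 and 0.62 ± 0.19 (SE). Ifit3 and Ifit3b are near-identical copies, and how far their probes share signal was not tested. A further spot of Ifit3b had a log2 change of 0.43 and did not pass. The remaining risers of this role were Lgals3bp, a secreted glycoprotein, Ifi44, Rtp4, Cmpk2, a mitochondrial nucleotide kinase, and Bst2 (tetherin), which holds budding virus at the cell surface, with log2 changes from 0.78 to 1.00. Lgals3bp was at 13.60, 13.50 and 13.56 in Ctrl and at 14.11, 14.77 and 14.73 in rCNT (log2 change 1.00 ± 0.19, SE; adjusted p = 0.000808). Bst2 had the tightest rCNT samples of these genes, at 13.54, 13.46 and 13.55, with Ctrl at 12.86, 12.73 and 12.88. Besides Oas3 and both Oasl genes, Samd9l, Ifi35, Xaf1, Slfn5 and Isg20 did not pass, with log2 changes from -0.30 to 0.19.

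In the group around Isg15, a ubiquitin-like protein that is attached to other proteins, 5 of 7 genes rose. Isg15 itself was at 11.19, 11.24 and 11.32 in Ctrl and at 13.48, 13.03 and 13.11 in rCNT, and it ranged from 10.26 to 11.70 in the other materials. The log2 change was 2.06 ± 0.31 (SE), a fold of 4.17 (adjusted p = 9.03e-05). Usp18, which removes Isg15 and restrains the type I receptor, was at 10.19, 10.27 and 10.47 in Ctrl and at 11.30, 11.03 and 11.59 in rCNT (log2 change 1.04 ± 0.15, SE; adjusted p = 5.66e-05). Neither gene overlapped between rCNT and any other group. Trim30a, a tripartite motif protein, rose by 0.74 ± 0.14 (SE), Herc6, the ligase that attaches Isg15 in mice, by 0.50 ± 0.17 (SE) and Dtx3l, a ubiquitin ligase that acts with Parp9, by 0.39 ± 0.13 (SE). The Dtx3l call rests on its brightest spot: its other tested spots had log2 changes of -0.22 and -0.02. The ADP-ribosylation enzymes Parp14 and Parp9 did not pass. The change of Parp14 was 0.25 (adjusted p = 0.243), and without the array of rCNT 4 it was 0.45 and passed (adjusted p = 0.0201). The standard error of Parp9 was 0.67, with a signal of 7.57 in rCNT 4 and 11.53 in rCNT 5.

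None of the 9 GTPases passed the threshold after rCNT (limma), and 1 was higher at an unadjusted p under 0.05, as 18.0% of all genes were, although 8 of 9 changes were above 0 and their median was 0.29. Gbp3, a guanylate-binding protein, had the smallest p of them, at 10.78, 10.75 and 11.12 in Ctrl and 11.04, 11.25 and 11.77 in rCNT (log2 change 0.49 ± 0.23, SE; adjusted p = 0.141). Iigp1, an immunity-related GTPase, was at 9.71, 10.02 and 9.97 in Ctrl and at 10.19, 10.42 and 10.65 in rCNT, with no overlap and a log2 change of 0.44 ± 0.27 (SE; adjusted p = 0.262). The 95% intervals of Igtp, from -0.21 to 1.24, and of Gbp2, from -0.16 to 0.76, included both no change and changes as large as that of Psmb8, described next, which passed. The difference between the roles was not tested.

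Both immunoproteasome subunits, which cut proteins into peptides for MHC class I, rose after rCNT. Psmb8 was at 12.23, 12.30 and 12.24 in Ctrl and at 13.13, 12.69 and 13.06 in rCNT (log2 change 0.67 ± 0.15, SE; adjusted p = 0.00389). Psmb9 was at 12.18, 12.13 and 12.13 in Ctrl and at 12.78, 12.56 and 12.62 in rCNT (log2 change 0.46 ± 0.16, SE; adjusted p = 0.0419). No rCNT sample overlapped with Ctrl for either gene, and the Psmb9 call was lost without the array of rCNT 4 (log2 change 0.41, adjusted p = 0.0932). Tap1, the peptide transporter, was at 7.91, 8.74 and 8.93 in rCNT against 8.59 to 8.83 in Ctrl and did not pass.

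**Figure D2:**
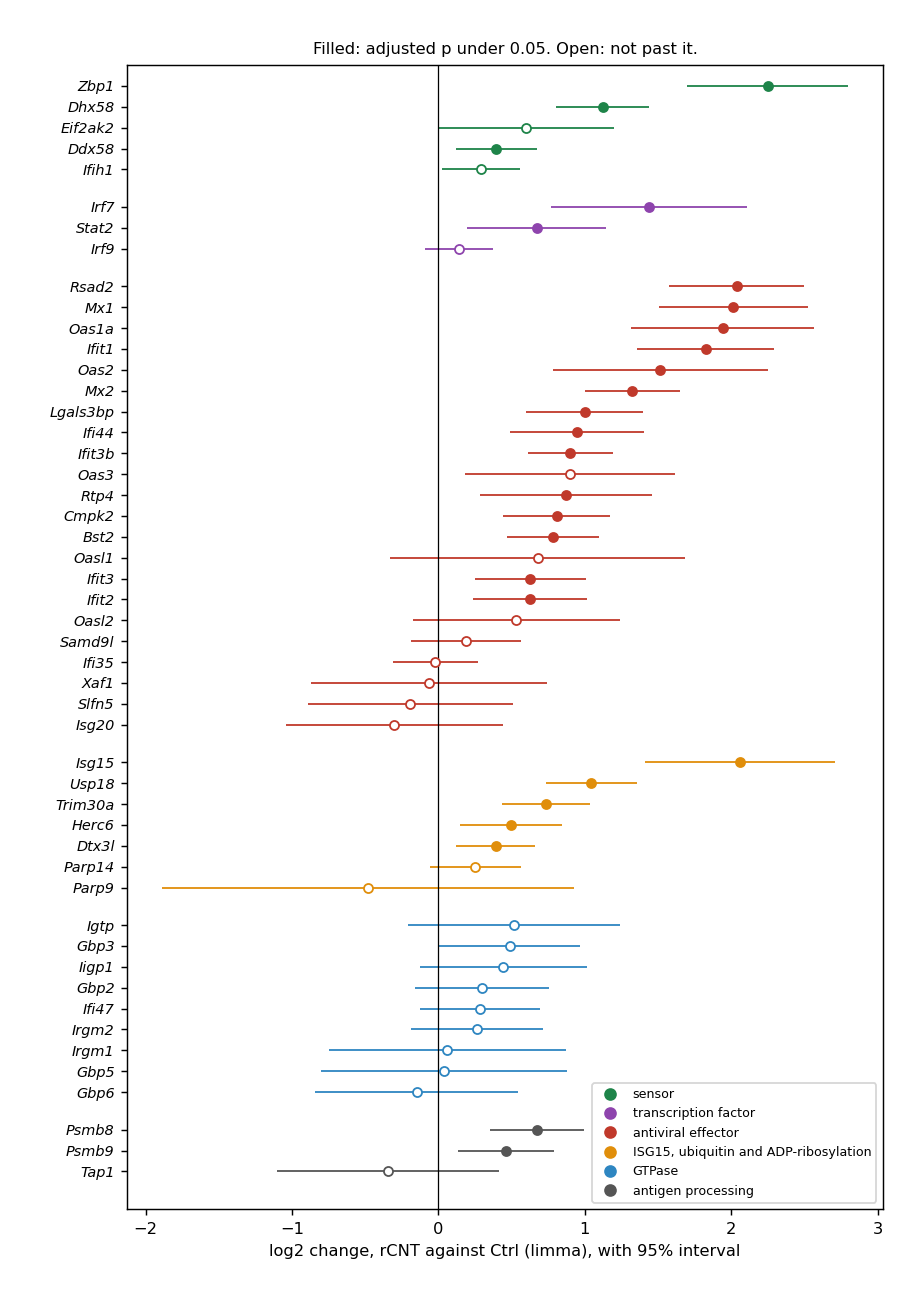
Log2 change from Ctrl to rCNT of the 49 genes with the 95% interval of the limma fit (horizontal axis, log2), grouped and coloured by role; filled points passed an adjusted p of 0.05. Filled points reach 2.25 for Zbp1, and all 9 GTPases are open.

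Leaving out single samples showed which of the 26 calls rest on few pools. Of the 26, 17 were kept in each of the 6 fits that left out 1 Ctrl or rCNT sample, among them Zbp1, Isg15, Rsad2, Mx1, Mx2, Oas1a, Ifit1, Irf7, Usp18 and Dhx58. The other 9 (Ddx58, Dtx3l, Herc6, Ifit2, Ifit3, Oas2, Psmb9, Rtp4 and Stat2) lost their call in at least 1, and all 9 lost it without Ctrl 2. Only Ctrl 2 of the Ctrl samples was in the dye of rCNT 4 and rCNT 6. The loss of this pool and the loss of that dye from Ctrl cannot be told apart. Without Ctrl 2 the count over all 49 genes was 17, and with the array that rCNT 4 shares with Graphite 16 left out it was 30 with a median log2 change of 0.76. Of the 26 calls 25 were kept without that array and Psmb9 was lost, while Eif2ak2, Ifih1, Oasl1, Oasl2 and Parp14 were gained. Slide 1 holds rCNT 4 and Ctrl 2, and slide 2 holds rCNT 6, Ctrl 1 and Ctrl 3, so a fit within either slide has 1 rCNT sample, assumed to vary like the samples of the other groups there. The median log2 change over the 49 genes was 0.40 within slide 1 and 0.73 within slide 2. On slide 2 rCNT 6 and both Ctrl samples were in different dyes, and only Graphite had samples in both. The dye term there thus rests mainly on Graphite 13 and Graphite 14 and enters each rCNT change. Gbp6, for instance, had a log2 change of -2.20 there. Its signal was 9.26 in rCNT 6, 10.09 and 9.95 in Ctrl 1 and 3, and 9.96 and 8.50 in Graphite 13 and 14. A further tested spot of Gbp6 differed, at 9.53 in rCNT 6, 8.24 and 8.39 in Ctrl 1 and 3, and 7.86 and 8.43 in Graphite 13 and 14. In each slide 25 of the 26 changes were above 0. Of all 49 changes 37 were above 0 within slide 1 and 40 within slide 2. The lowest were those of Parp9 within slide 1 (-2.73) and of Gbp6 within slide 2.

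The comparison of rCNT with the other materials does not involve the Ctrl mean. Against the mean of the other 5 materials, 27 of the 49 genes were higher after rCNT and none lower, where 13.8% of all genes were higher and 12.4% lower. The median log2 difference was 0.50. Rsad2 was higher by 1.82 ± 0.16 (SE; adjusted p = 3.18e-07), Isg15 by 2.19 ± 0.23 (SE; adjusted p = 1.53e-06) and Bst2 by 1.05 ± 0.11 (SE; adjusted p = 1.76e-06). Oas3 and Ifih1 passed here and not against Ctrl, and Rtp4 passed only against Ctrl. An F test for any difference among the 6 materials called 19 of the 49 genes, against 16.5% of all genes. These were 12 of 22 antiviral effectors, 3 of 7 in the Isg15 group, 2 of 5 sensors, 1 of 3 transcription factors, 1 of 3 antigen processing genes and 0 of 9 GTPases, of which 2 had an unadjusted p under 0.05.

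Set directly against tCNT, the tangled nanotube at the same dose and time, rCNT had 24 of the 49 genes higher and none lower, where 5.71% of all genes were higher and 3.14% lower. The median log2 difference was 0.63. Zbp1 differed by 1.99 ± 0.26 (SE; adjusted p = 0.00011), Rsad2 by 1.78 ± 0.22 (SE; adjusted p = 5.2e-05), Mx2 by 1.29 ± 0.15 (SE; adjusted p = 3.55e-05) and Ifit1 by 1.64 ± 0.22 (SE; adjusted p = 0.000144). The tCNT samples of Zbp1, at 7.93, 7.91 and 7.98, lay within the range of Ctrl, whereas those of Rsad2, at 8.12, 8.41 and 8.42, lay partly above it. Against Ctrl itself, tCNT had 0 of the 49 genes higher or lower (limma), where 0.684% of all genes were higher and 0.0242% lower. At an unadjusted p under 0.05 it again had 0, where 6.14% of all genes were higher and 3.16% lower, and in 2 of the 49 every tCNT sample lay above every Ctrl sample, as in 8.94% of all genes. The median log2 change was -0.07, and the 95% interval for Isg15 ran from -0.59 to 0.69. The count of 24 fell to 15 without tCNT 7, and it was 0 with array as a fixed term, a fit in which no array holds both rCNT and tCNT.

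**Figure D3:**
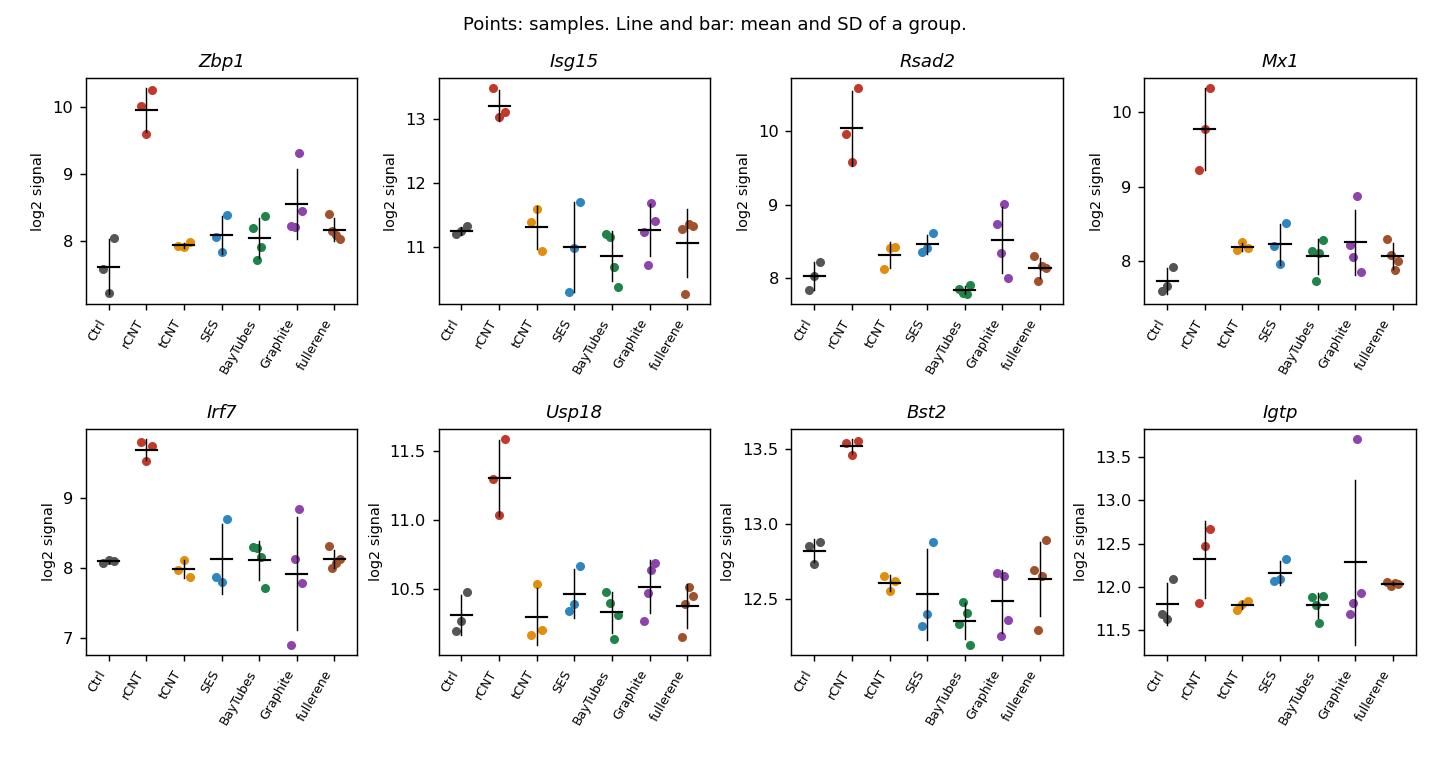
Log2 signal (vertical axis, separate for each gene) of 8 genes in every sample by group; points are samples, horizontal lines are group means and vertical bars are SD. The rCNT points of Zbp1, Isg15, Rsad2, Mx1, Irf7, Usp18 and Bst2 lie above all other points, and for Igtp the highest point, 13.71, is Graphite 15.

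In the other comparisons with Ctrl, which share the same 3 Ctrl samples, few of the genes passed. After SES no gene of the 49, or of all 16519, passed an adjusted p of 0.05 (limma). At an unadjusted p under 0.05, 8 of the 49 were higher and none lower, where 1.97% of all genes were higher and 2.55% lower. These were Dhx58, Ifit1, Ifit3, Ifit3b, Ifi44, Rsad2, Rtp4 and Oas2, with log2 changes from 0.34 to 0.75. In 13 of the 49 every SES sample lay above every Ctrl sample, against 7.25% of all genes, and the median log2 change was 0.25. The values were uneven between samples: SES 12 was the highest SES sample for 37 of the 49 genes, as it was for 25.07% of all genes, and its median over the 49 was 0.43, against 0.22 in SES 10 and 0.16 in SES 11.

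After Graphite 1 of the 49 genes rose, where 0.545% of all genes did, and none fell, where 0.587% did. This was Ifit3b, at 9.97, 10.07, 10.23 and 9.94 in Graphite 13 to 16, each above the Ctrl samples (log2 change 0.51 ± 0.12, SE; adjusted p = 0.0469). The call was lost in 6 of the 7 fits that left out 1 sample, including those without Graphite 13 and without Graphite 16. Zbp1 came next, with a change of 0.84 ± 0.23 (SE; adjusted p = 0.0719). In all, 12 of the 49 were higher at an unadjusted p under 0.05, where 12.2% of all genes were, and Ifi35, Isg20 and Bst2 were lower, 3 of 49, where 8.35% were. In 5 of the 49 every Graphite sample lay above every Ctrl sample, as in 9.41% of all genes. After BayTubes none rose, where 2.16% of all genes did, and 1 fell, where 1.02% did, and for 1 gene every sample lay above Ctrl, as for 6.54% of all genes. The gene that fell was Bst2, at 12.33, 12.48, 12.40 and 12.19 in BayTubes 17 to 20, each below the Ctrl samples (log2 change -0.47 ± 0.12, SE; adjusted p = 0.0387). The direction was thus opposite to that after rCNT, and the call was lost in 6 of 7 fits without 1 sample. Every tCNT and every Graphite sample of Bst2 also lay below the Ctrl samples, with means of 12.61 and 12.48. The means after SES and fullerene, 12.53 and 12.63, lay below the Ctrl mean of 12.82 too, with samples that overlapped Ctrl. After fullerene 0 of the 49 passed in either direction (limma), where 0.151% of all genes rose and 0.109% fell. At an unadjusted p under 0.05, 2 were higher, where 7.31% of all genes were, and 1 was lower, where 4.76% were. In 7 of the 49 every fullerene sample lay above every Ctrl sample, as in 11.2% of all genes. The median log2 changes were 0.18 after Graphite, -0.04 after BayTubes and 0.09 after fullerene.

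The Graphite samples differed among themselves most in the GTPases. In Graphite 15 the median of the 9 GTPases lay 1.24 above the Ctrl mean on the log2 scale, against 0.07 in Graphite 13, -0.35 in Graphite 14 and 0.12 in Graphite 16. Graphite 15 had the highest signal of all 24 samples for 7 of the 9 GTPases and for 9 of the 49 genes, as for 3.1% of all genes. Igtp was at 13.71 there and at 11.69, 11.82 and 11.93 in the other Graphite samples, and Gbp5 was at 10.67, against 8.19, 8.42 and 9.49. The rCNT samples had GTPase medians of 0.06, 0.36 and 0.63. Of the 26 genes that rose after rCNT, Graphite 15 was the highest sample outside rCNT for 12, among them Zbp1 at 9.31, Oas1a at 12.23, Mx1 at 8.87 and Rsad2 at 9.01. It lay below all rCNT samples for 15 of the 26, these 4 and Isg15 at 11.68 included.

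Other genes were high in the same sample. Ifng, which codes for type II interferon, had a log2 signal of 7.77 in Graphite 15 and 5.93 to 7.06 in the other 23 samples. Cxcl9, a chemokine induced by it, was at 8.68, against 5.54 to 7.20 in all samples outside rCNT and Graphite 15. The 8 natural killer cell markers had a mean of 1.06 above Ctrl in Graphite 15, against 0.11 to 0.56 in the other Graphite samples and -0.23 to 0.23 after rCNT. Klrb1c, a natural killer cell receptor, was at 8.53, against 6.72 to 7.94 elsewhere. Chosen after their values were seen, Gzma, a granzyme of cytotoxic cells, and the neutrophil gene S100a8 were also highest there, at 13.98 and 14.80. The part of these cells in the GTPase values was not tested.

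**Figure D4:**
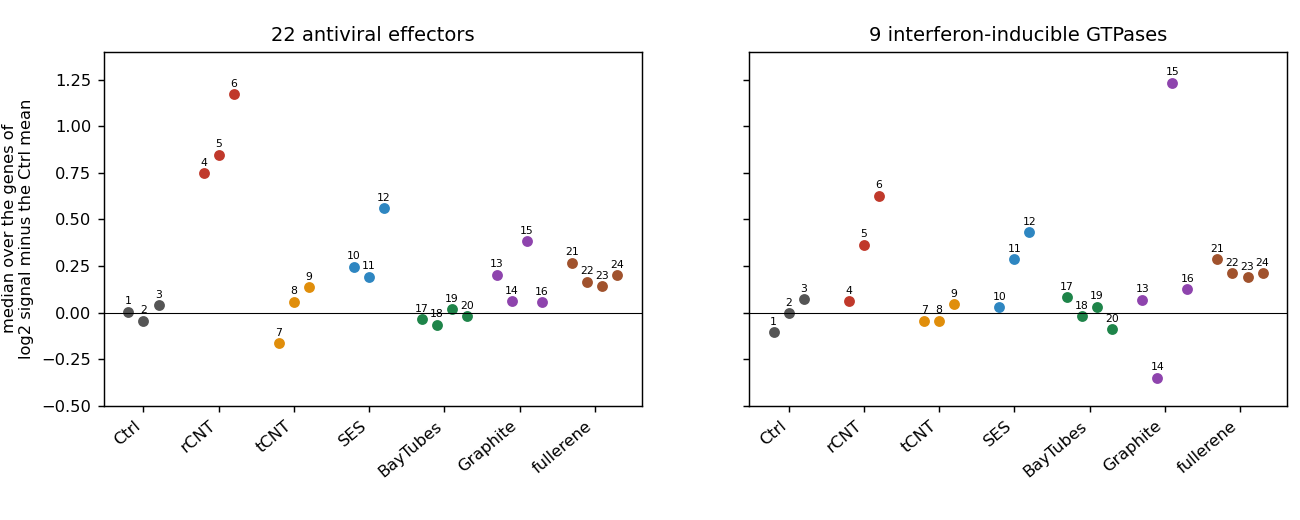
Median log2 signal minus the Ctrl mean over the 22 antiviral effectors (left) and the 9 GTPases (right) for each sample; numbers are sample numbers. The rCNT samples are highest for the effectors, from 0.75 to 1.17, and Graphite 15 is highest for the GTPases at 1.24.

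A set of the genes was low on the array of rCNT 4 and Graphite 16. For Isg20, Oasl1, Irf9, Xaf1, Parp9 and Irgm1, 6 of the 49, both of its samples lay below the other 22, as they did for 5.58% of all genes, and both lay above for none. Parp9 was at 7.57 and 7.58 on this array and at 9.39 or more on all others. Graphite 14 and rCNT 6, which share an array, were also below the Parp9 range of Ctrl (10.31 to 10.76), at 9.39 and 10.03. So were fullerene 23 and Graphite 15 on another array, at 9.50 and 9.90. Isg20, an exonuclease, was at 10.90 and 10.65 in its brightest spot, against 11.82 to 13.11 on the other arrays. Its other spot showed no such drop, at 12.34 in rCNT 4 and 11.59 in Graphite 16, and on that spot Isg20 rose after rCNT by 0.65 ± 0.11 (SE; adjusted p = 0.000251). The samples of the group without this array had medians over the 49 genes of 0.62 in rCNT 5 and 0.81 in rCNT 6, against 0.17 in rCNT 4. Over all named spots, 18 of the 49 genes had more than 1, with 35 further spots tested. Of the 10 that belong to genes with a call after rCNT 8 had a change above 0 and 5 passed, and of the 25 that belong to other genes 1 passed, that of Isg20, where 12.1% of all 25235 named spots tested were higher. Those of called genes that did not pass were spots of Cmpk2 (log2 change 0.27), Ddx58 (0.39), Ifit3b (0.43) and Dtx3l (-0.22 and -0.02), so these calls rest on the brightest spot.

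**Figure D5:**
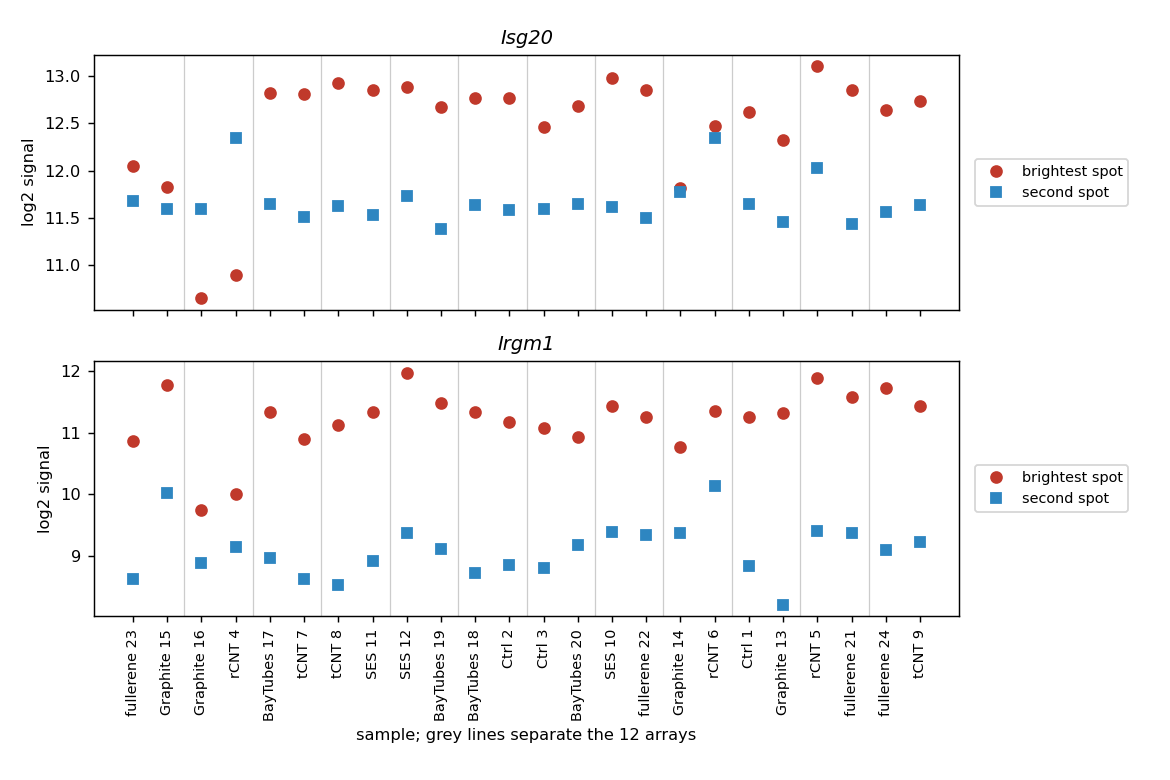
Log2 signal of the brightest and the second spot of Isg20 and Irgm1 in the 24 samples, ordered by array, with grey lines between arrays. On the array of Graphite 16 and rCNT 4 the brightest spots fall to 10.65 and 10.90 for Isg20 and to 9.75 and 10.01 for Irgm1, and the second spots do not.

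Further genes of the interferon system were read from lists of its parts. Of 9 interferon genes listed, 5 were bright enough to test, and none passed after any material against Ctrl (limma). At an unadjusted p under 0.05 there was 1, Ifng after Graphite (log2 change 0.58 ± 0.24, SE), where 12.2% of all genes were higher. After rCNT their log2 changes ran from -0.09 to 0.55, the highest being Ifng, at 6.32, 6.94 and 7.06 against 6.19 to 6.38 in Ctrl. Ifna4, Ifnb1 and Ifne lay below the filter. Of 9 receptor and Janus kinase genes tested, 1 fell after rCNT, the type III receptor Ifnlr1 (log2 change -0.30 ± 0.10, SE; adjusted p = 0.034), and none rose, where 9.41% of all genes fell and 12.4% rose. The type I receptor gene Ifnar1 was at 6.34 in rCNT 4, 11.35 in rCNT 5 and 9.23 in rCNT 6, against 11.12 to 11.65 in Ctrl, and at 7.31 in Graphite 16.

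Upstream of interferon, 6 of 16 nucleic acid sensing genes rose after rCNT and none fell, where 12.4% of all genes rose and 9.41% fell, as for each list that follows. Sting1, the adaptor of cytosolic DNA sensing, was at 10.89, 10.74 and 10.73 in Ctrl and at 12.13, 12.14 and 12.45 in rCNT (log2 change 1.34 ± 0.17, SE; adjusted p = 1.54e-05). The DNA sensors Ifi204 and Cgas rose by 1.30 ± 0.24 and 0.96 ± 0.20 (SE), and Irf5, a transcription factor downstream of Toll-like receptors, by 1.13 ± 0.27 (SE). Of 10 regulators 3 rose, among them Socs1, an inhibitor of Janus kinases, by 1.64 ± 0.19 (SE; adjusted p = 9.14e-06). Of the interferon-induced chemokines, Cxcl10, which attracts T cells, changed most, from 7.32, 7.62 and 7.77 in Ctrl to 12.10, 11.31 and 12.54 in rCNT (log2 change 4.41 ± 0.55, SE; adjusted p = 1.54e-05). Cxcl9 rose by 2.47 ± 0.45 (SE), and Cxcl11 changed by -0.42 ± 0.11 (SE; adjusted p = 0.0116). The Cxcl11 spot stood at 16.21 or more in every sample, and its gene name was not checked against the probe.

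A further list of 36 tested interferon-induced genes outside the 49 had 9 higher after rCNT, none lower and a median log2 change of 0.25. Ifi27l2a rose by 1.83 ± 0.29 (SE), Apol9b by 1.15 ± 0.24 (SE), Slfn8 by 1.07 ± 0.21 (SE) and Ifitm3, a membrane protein that blocks viral entry, by 0.78 ± 0.17 (SE). After each of the other 5 materials the list had 0 genes higher and 0 lower (limma). At an unadjusted p under 0.05, 3 of the 36 were higher after Graphite, where 12.2% of all genes were, and 0 after the others. On the same measure 2 were lower after Graphite, where 8.35% of all genes were, and 0 after SES, where 2.55% were. After tCNT and fullerene 1 each was lower, where 3.16% and 4.76% of all genes were. After BayTubes 1 was lower, as were 1058 of the 16519 genes. Of 12 further MHC class I pathway genes 2 rose after rCNT, near the 12.4% of all genes, namely Calr, a chaperone, and Psme2, a proteasome activator, by 0.46 ± 0.13 and 0.41 ± 0.13 (SE).

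Markers of other cells moved with rCNT too, where 12.4% of all genes rose and 9.41% fell. Of 7 tested markers of monocytes and recruited macrophages 4 rose, with a median log2 change of 0.99, and the mean of the list relative to Ctrl was 0.98 to 1.25 in the rCNT samples, -0.08 to 0.04 in Ctrl and up to 0.85 in the other materials. Ccr2, the receptor that brings monocytes into tissue, was at 9.93, 10.00 and 10.72 in rCNT against 7.71 to 8.77 in Ctrl. Of 7 endothelial markers 5 fell, with list means of -0.84 to -0.58 in rCNT. These means were also below Ctrl (-0.07 to 0.04) after tCNT (-0.57 to -0.28), BayTubes (-0.62 to -0.22) and fullerene (-0.47 to -0.21). After SES and Graphite they overlapped Ctrl. Of 6 ciliated cell markers 4 rose and 1 fell, with list means of 0.38 to 0.47 in rCNT against -0.10 to 0.11 in Ctrl. The ciliated means were also above Ctrl after tCNT (0.26 to 0.63) and BayTubes (0.13 to 0.36), and overlapped Ctrl after SES, Graphite and fullerene. Of 4 red blood cell markers 2 fell, and of 6 T cell markers 2 rose, Cd3d and Cd3g. Of 7 markers of plasmacytoid dendritic cells, which secrete type I interferon, 1 fell (Siglech, log2 change -0.52 ± 0.15, SE; adjusted p = 0.0173), read from a spot at 15.44 or more in every sample whose gene name was not checked against the probe, and none rose, with list means of -0.06 to 0.09 in rCNT against -0.15 to 0.10 in Ctrl. The part of these cells in the interferon-induced changes was not tested.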

How the data were processed

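Lung RNA of 24 pools was measured on 12 two-colour arrays with 62976 spots on 3 slides, each dye holding its own sample. Per spot and sample the authors deposited 1 log2 signal, made with Agilent Feature Extraction and limma, per the submitters' processing notes; versions and settings are not given in the sources used here. After sorting, the values of 2 samples lay within 0.0856 of each other on the log2 scale. Samples that share an array are not independent, so precision depends on the number of arrays as well as on the number of samples.

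Spots were named through the platform annotation, updated with RefSeq names of GRCm38.p6, which gave 31465 named spots and 20738 genes. Of several spots of a gene the brightest on average was used, and the gene was tested when it passed the sample's 40th percentile in 3 samples or more. Changes were estimated with limma 3.58.1 (statmod 1.5.0, R 4.3.3) over all 24 samples, with terms for group and dye and array as a random block (correlation 0.399). Tests were 2-sided, with Benjamini-Hochberg adjustment over the 16519 genes of a comparison. The fit was tested on simulated data. A fold is 2 to the power of the size of the log2 change, and the scale of low signals understates it.

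The genes, roles, further lists and comparisons were chosen with earlier results of these data known. All 49 genes could be named. Values in every Ctrl and rCNT sample are given for the 12 with the largest called change after rCNT, for the 2 with the smallest p in each role and for those called after another material. From the further lists, each interferon gene and receptor, the 4 called genes with the smallest p and the first 2 or called markers could be named. Alternatives changed the dye term, the block, the filter, the normalization, the spot, the variance prior, the slide, the threshold and which samples entered the fit, and left out samples. Spots without a gene name were not used.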

Additional observations from a re-analysis of the deposited data

Results flagged for a closer look

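In each group of 4 samples, the highest and lowest sample of each of the 49 genes were checked with Dixon's criterion, which asks whether the gap to the nearest sample takes up an unusually large share of the group's range. Of 147 checks 8 were past the 95% critical value, and chance gives about 1 in 20. In Graphite there were 4 of 49 genes, against 7.97% of all genes, in fullerene 4 of 49, against 6.33%, and in BayTubes 0 of 49, against 7.32%.

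Of the GTPases, Igtp (log2 signal 13.71, other Graphite samples 11.69 to 11.93), Irgm2 (12.96, others 11.68 to 11.85) and Gbp2 (12.91, others 11.60 to 11.82) were high in Graphite 15. Gbp6 was low in Graphite 14, at 8.50, against 9.96 to 10.07. Its other tested spot was not low there, at 8.43, against 7.86 to 9.38 in the other Graphite samples. In fullerene 23 the low genes were Parp9 at 9.50 (others 11.04 to 11.13), Xaf1 at 10.65 (others 11.57 to 11.69) and Ifih1 at 10.58 (others 10.66 to 10.67). Isg15 was low in fullerene 22, at 10.26, against 11.28 to 11.35.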

How the results depend on the processing

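No paired analysis was possible because the sample numbers in the labels run from 1 to 24 and no number is shared between groups; the pairs that exist are samples on one array, which the array term covers. The count of 26 genes higher after rCNT than in Ctrl was 13 with array as a fixed term (11 of them among the 26, with all 26 changes above 0 and a median over the 49 of 0.665, against 0.60) and 14 with only the groups compared in the fit. Without 1 sample it was 17 to 28. Against the mean of the other 5 materials the 27 became 17 with array as a fixed term, and 19 to 32 without 1 sample. Against tCNT the 24 became 0 with array as a fixed term, 3 with only the groups compared, and 15 to 30 without 1 sample. The 19 genes that differed among the materials became 7 with array as a fixed term and 17 to 28 without 1 sample.

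The 1 gene higher after Graphite became 0 at an adjusted p under 0.01, without the array block, with array as a fixed term, with no filter, with cyclic loess, with the mean of all spots, with a variance trend, within slides 1 and 2, with only the groups compared, without the array of rCNT 4 and Graphite 16, and with the second-brightest spot, the last pair chosen after seeing the data; without 1 sample it was 0 to 3. For BayTubes the 0 genes higher became 1 with only the groups compared. Among single genes after rCNT, Ddx58 changed sign within slide 1 (-0.024), and Dtx3l within slide 2 (-0.17) and with its second-brightest spot (-0.23). Of all counts recomputed, 201 stayed within 1.5 times and 33 did not. The 201 include each count of 0 that stayed 0, as the main counts after tCNT, SES, BayTubes and fullerene were 0. Of single changes, 484 kept direction and call, 131 lost the call and 3 changed sign. The cause of these differences was not tested. Fits within a slide hold fewer samples. No array holds both rCNT and Ctrl or both rCNT and tCNT, so with array as a fixed term these groups are compared only through others.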
